A study of Caenorhabditis elegans with 80 samples.

Results

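The astacin genes of Caenorhabditis elegans were followed in worms exposed to acrylamide, cadmium or mercury. Members were the genes whose single symbol in the probe annotation starts with nas- and a number, together with dpy-31, hch-1 and toh-1. This gave 36 genes of the 17118 that had a probe set of their own, each read through the probe set of highest mean signal. All 36 matched a RefSeq gene of the same symbol and identifier in assembly WBcel235, which was used for names and neighbours only. A further 3 nas genes of RefSeq had no single-symbol probe set and were not analysed here.

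Astacins are secreted or membrane-anchored zinc metalloproteases that carry a signal peptide, an inhibitory propeptide and a catalytic domain. In nematodes they act in hatching, in the processing of cuticle collagens, in the shedding of the old cuticle at each moult, and in digestion. Several are made by the epidermis in waves that follow the moulting cycle, and others by the pharynx or the gut.

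Whole worms grown in CeHR, an axenic liquid medium, were exposed from mid-L4, in their final larval stage, and polyadenylated RNA was read on 80 expression arrays. The exposed groups received 100, 500 or 1000 mg/L acrylamide, 5, 20 or 50 mg/L cadmium, or 5, 10 or 25 mg/L mercury (called low, mid and high) for 4 h or 8 h. Each chemical had its own unexposed controls at 4 h, 8 h and 0 h. The 27 groups held n = 3 arrays each, except mid cadmium at 4 h with n = 2. The 0 h control came from 1 flask, and strain is not given in the sources used here. No label says that replicates were separate cultures, so each p-value measures the spread between these arrays only, and that spread may be technical. In RNA from whole worms, fewer cells of a type and less RNA per cell cannot be told apart.

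Values are MAS5 signals centred to an array median of 202.9, and arrays of a group are listed in the order of their replicate numbers. Changes are on the scale of log2(signal + 52), with the standard error (SE) of the change, and understate the change of dim genes. A gene was called at an adjusted p under 0.05 from limma, adjusted over all probe sets tested in the comparison. Only probe sets above a signal of 132 on at least 3 arrays of a fit were tested, which left 30 members in the acrylamide series, 25 in the cadmium series and 23 in the mercury series. Of the 36 members, 13 were called in at least 1 of the 18 comparisons of a dose with its control, 18 were tested and never called, and 5 were never tested. The exposed and control arrays did not overlap in any of the 42 calls, of which nas-27 accounted for 11. Shares over all probe sets are given for each comparison below. None was computed for a call in any of the 18 comparisons, or for arrays that do not overlap.

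Some arrays stood apart. Both arrays of mid cadmium at 4 h correlated at 0.831 with each other, and replicate 1 was closest to the cadmium 0 h controls. Replicate 1 of the acrylamide control at 0 h had a trimmed mean of 213.2, against 493.5 to 497.4 in the other arrays. For the adult cuticle collagen gene col-19, replicate 1 stood apart in every 4 h group of the acrylamide series. It had a signal of 4630 in the control, against 704 and 425 in replicates 2 and 3. The exposed groups showed the same split, with 3860 against 931 and 423 at the low dose. At the mid dose it was 3720 against 784 and 494, and at the high dose 3340 against 697 and 425. Calls that were lost without them are named beside the result.

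The gene nas-27 had the largest fall in the family under all 3 chemicals. In the acrylamide series at 4 h its signal was 3110, 957 and 920 in controls, 1870, 1260 and 714 at the low dose, 599, 276 and 265 with the mid dose and 40.5, 62.7 and 44.8 with the high dose. At 8 h of the same series it was 486, 1630 and 1670 in controls, 399, 1410 and 1290 at the low dose, 103.5, 213 and 236 with the mid dose and 15.8, 8.29 and 29.5 with the high dose. The low-dose arrays overlapped the controls at both times, and every mid-dose and high-dose array lay below every control. The fall at the high dose was 14.5-fold at 4 h (log2 change -3.85, SE 0.51, limma adjusted p = 1e-05) and 16.7-fold at 8 h (log2 change -4.06, SE 0.51, limma adjusted p = 3.5e-06).

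Cadmium gave the same order of levels for nas-27. The 4 h signals were 1910, 2230 and 1750 in controls, 1100, 1890 and 839 at the low dose, 106 and 345 with the mid dose and 83.8, 215 and 12.2 with the high dose. The 8 h signals were 878, 606 and 1500 in controls, 846, 1120 and 455 at the low dose, 143, 125 and 157 with the mid dose and 75.6, 117 and 28.2 with the high dose. Again the low-dose arrays overlapped the controls and the higher doses did not. The high dose lowered nas-27 by 15.1-fold at 4 h (log2 change -3.92, SE 0.45, limma adjusted p = 1.7e-06) and 8.19-fold at 8 h (log2 change -3.03, SE 0.45, limma adjusted p = 6.3e-05).

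In the mercury series at 4 h, nas-27 read 1670, 2030 and 1810 in controls, 1290, 1420 and 1020 at the low dose, 588, 212 and 110 with the mid dose and 114, 74.6 and 59.4 with the high dose. At 8 h it read 1160, 1150 and 1010 in controls, 689, 589 and 589 at the low dose, 190, 138 and 20.8 with the mid dose and 86.5, 37.2 and 45.5 with the high dose. Here the low-dose arrays too lay below every control, although the low-dose changes of -0.55 (SE 0.36) and -0.78 (SE 0.36) did not pass the test (limma adjusted p = 0.63 at both times). The high dose lowered nas-27 by 14.2-fold at 4 h (log2 change -3.83, SE 0.36, limma adjusted p = 4.7e-09) and 10.9-fold at 8 h (log2 change -3.44, SE 0.36, limma adjusted p = 2e-08).

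Over the 3 chemicals, 11 of 18 low-dose arrays, 17 of 17 mid-dose arrays and 18 of 18 high-dose arrays lay below the lowest control of their own series and time for nas-27. Relative to the mean of those controls, the median array stood at 66.3% for the low dose, 15.8% for the mid dose and 3.56% for the high dose. The 0 h controls ranged from 166 to 707, and all 18 high-dose arrays were also below the lowest 0 h control of their series. The mid-dose falls were -2.34 with acrylamide at 8 h, -3 and -2.35 with cadmium at 4 h and 8 h, and -2.64 and -2.95 with mercury at 4 h and 8 h (log2, all called by limma). At 4 h of mid acrylamide the change of -1.84 (SE 0.51) did not pass (limma adjusted p = 0.076). With a pseudocount of 16 in place of 52, the high-dose changes of nas-27 ran from -5.09 to -3.54 in place of -4.06 to -3.03. The size of these folds is set in part by the pseudocount. The call at 8 h of mid acrylamide was lost without mid-dose replicate 1, control replicate 2 or control replicate 3 (log2 change between -2.9 and -2.06, largest limma adjusted p = 0.068). Without replicate 1, the change at 4 h of mid cadmium was -2.34 (limma adjusted p = 0.041).

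**Figure D1:**
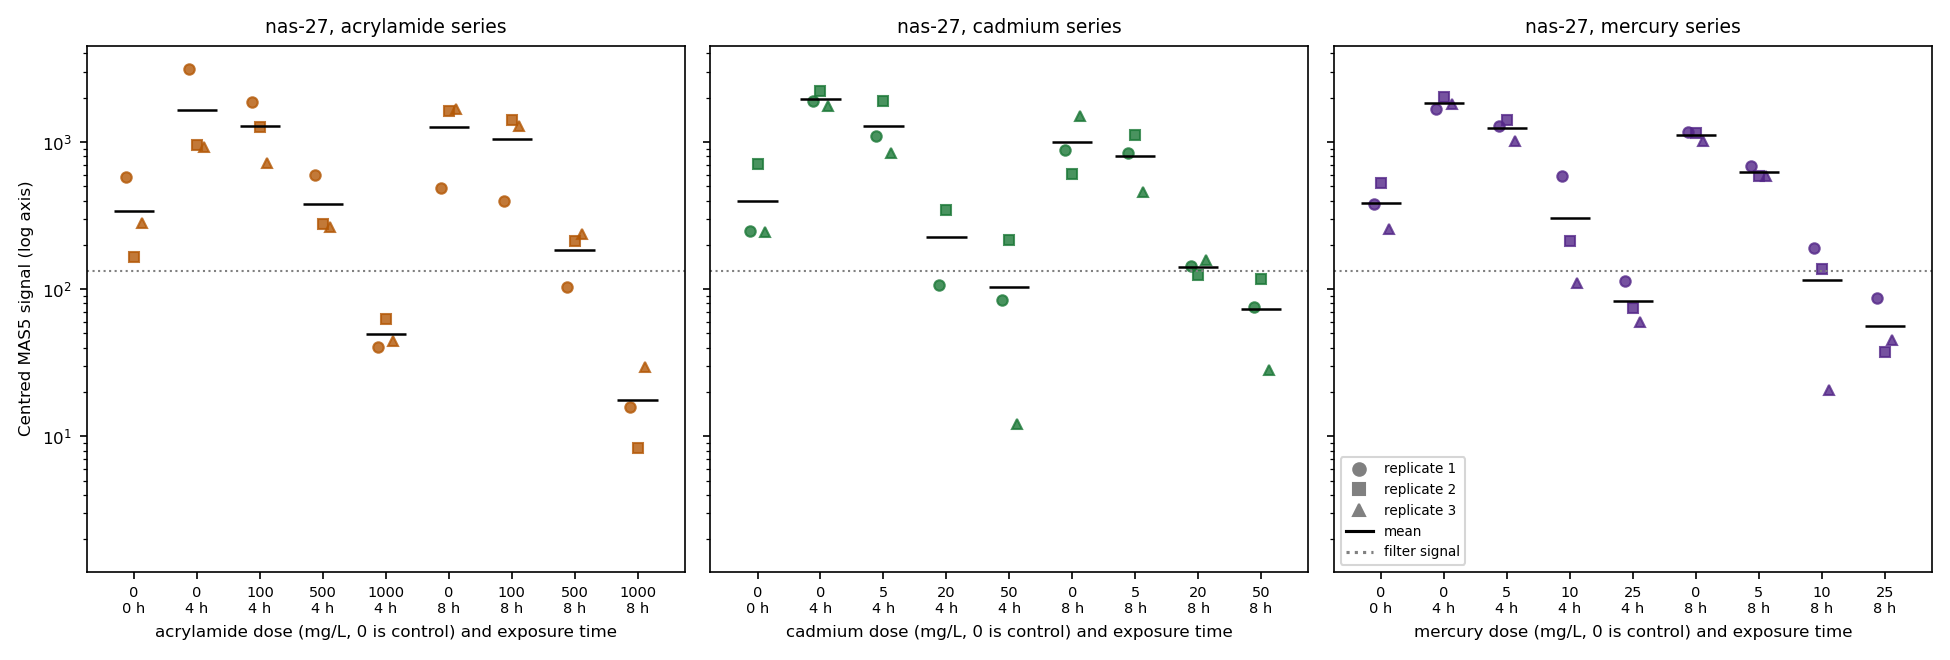
Signal of nas-27 on a log axis in all 27 groups, by dose in mg/L (0 is the unexposed control) and exposure time, with 1 panel per chemical. Symbols are arrays by replicate number, bars are group means and the dotted line is the filter signal of 132. The high-dose arrays lie between 8.29 and 215 in all 3 panels, against 486 to 3110 in the controls at 4 h and 8 h.

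No difference in the nas-27 response to the high dose between times or chemicals passed the test. The effect at 8 h less that at 4 h was -0.21 (SE 0.72) for acrylamide, 0.89 (SE 0.64) for cadmium and 0.38 (SE 0.50) for mercury on the log2 scale, with limma adjusted p of 1, 0.85 and 0.76. The difference between chemicals at one time ranged from -0.09 to 1.03 (SE 0.68), and the smallest limma adjusted p was 0.84. Of the 18 high-dose arrays, 17 were below the filter signal of 132 and 9 below the pseudocount of 52, which compresses these effects. The test therefore does not show that they were alike.

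Beyond nas-27, acrylamide left the astacins with few calls. At the low dose no member was called at 4 h or 8 h by limma (1 and 0 of 30 at an unadjusted p under 0.05), where 0.158% and 0.328% of all probe sets were called. At the mid dose no member was called at 4 h (2 at an unadjusted p under 0.05, 1.6% of all probe sets called) and 0 rose and 1 fell at 8 h (1.94% and 0.467% of all probe sets). At 4 h of the high dose 0 rose and 1 fell (3.12% and 3.08% of all probe sets), and at 8 h 1 rose and 1 fell (4.17% and 4.63%). Without replicate 1 of the whole series, an alternative chosen after seeing the data, 1 member was called at 4 h and 3 at 8 h of the mid dose. The median change of the tested members at 8 h of the high dose was 0.23, against -0.06 over all probe sets.

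The riser at 8 h of high acrylamide was nas-25. It read 182, 228 and 174 at the high dose, against 82, 51.7 and 60.1 in controls. All exposed arrays were above all controls, and the controls were below the filter signal of 132. The gene passed the filter in the acrylamide series and in neither of the others, and did so where it was high, which favours finding a difference. Its change was 1.08 (SE 0.28, limma adjusted p = 0.013). The call was lost without control replicate 2 or high-dose replicate 2 (largest limma adjusted p = 0.07), and the log2 change then lay between 0.99 and 1.19.

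At the mid and high doses of cadmium more members were called at 4 h than at 8 h, as were more of all probe sets. No member differed between the times in its high-dose effect by limma (5 of 25 at an unadjusted p under 0.05, 0.235% of all probe sets called). The mid-dose calls at 4 h other than nas-27 depended on the arrays kept, as given below. At the low dose none was called at either time by limma (0 and 0 of 25 at an unadjusted p under 0.05), where 0.612% and 0.29% of all probe sets were called. At 4 h, 1 rose and 4 fell at the mid dose (4.46% and 10.4% of all probe sets) and 1 rose and 2 fell at the high dose (2.82% and 4.27%). By 8 h 0 rose and 1, nas-27, fell at either upper dose, where 1.58% and 0.433% of all probe sets rose and fell with mid cadmium, and 3.64% and 2.84% with high cadmium. The median change over all probe sets was -0.12 at 4 h of the mid and high doses, and that of the tested members was -0.43 and -0.16.

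The gene nas-37, which encodes a protease that digests the old cuticle at ecdysis, fell at 4 h of cadmium. It read 620, 480 and 414 at the high dose, against 1450, 1390 and 1340 in controls. The exposed arrays lay below all controls, and the change was -1.39 (SE 0.24, limma adjusted p = 0.00043). Low cadmium arrays, at 1560, 937 and 798, overlapped the controls. By 8 h high cadmium arrays were at 348, 429 and 374, against 458, 467 and 468 in controls, and the change did not pass the test.

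At the same time nas-9 rose with high cadmium. It read 633, 573 and 697 at 4 h of the high dose, against 136, 175 and 174 in controls. The groups did not overlap, and the change was 1.69 (SE 0.33, limma adjusted p = 0.0015). A different probe set of nas-9 gave 0.85 with a limma adjusted p of 0.1, so the call held for 1 of its 2 probe sets. At 8 h nas-9 read 1370, 1000 and 1090 at the high dose and 714, 928 and 645 in controls, a difference that did not pass the test.

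At 4 h of mid cadmium, the calls of members other than nas-27 depended on which arrays were kept. There nas-37 read 360 and 746 against 1450, 1390 and 1340 in controls, dpy-31 read 175 and 527 against 1010, 755 and 824, and nas-4 read 135 and 880 against 1290, 1400 and 1410. The tolloid-like gene nas-39 read 235 and 234 at mid cadmium, against 129, 82.9 and 133 in controls. With both arrays the changes were -1.33 for nas-37 (limma adjusted p = 0.0028), -1.33 for dpy-31 (0.007), -1.76 for nas-4 (0.019) and 0.79 for nas-39 (0.026). Without mid-dose replicate 1 they were -0.85, -0.65, -0.60 and 0.79, and none of them passed (limma adjusted p = 0.18, 0.39, 0.66 and 0.21). Of the 5 members called with both arrays, 1 was called without replicate 1, while 13 were called without replicate 2. Leaving out control replicate 2 gave 3 calls, without nas-4 and nas-39. With only the compared groups fitted none of these 4 was called (adjusted p between 0.23 and 0.28), and the other probe sets of dpy-31 gave -0.46 and -0.77 (0.23 and 0.05). With the authors' scaling nas-4 was not called (-1.67, adjusted p = 0.054).

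Of the 3 chemicals mercury called the most members, 11 over its 6 comparisons, a total for which no share over all probe sets was computed. At 4 h 1 member rose and 0 fell at the low dose (1.04% and 1.65% of all probe sets), 2 rose and 2 fell at the mid dose (6.94% and 9.45%), and 4 rose and 3 fell at the high dose (9.04% and 13.4%). At 8 h the low dose called none by limma (6 of 23 at an unadjusted p under 0.05, 0.688% of all probe sets called). Also at 8 h, 4 rose and 2 fell at the mid dose (10.3% and 7.49%), and 6 rose and 4 fell at the high dose (17.1% and 14%). The risers were nas-9, nas-11, nas-31, nas-38, dpy-31 and nas-6, and the members that fell were nas-27, nas-37, nas-4, nas-15 and nas-36.

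**Figure D2:**
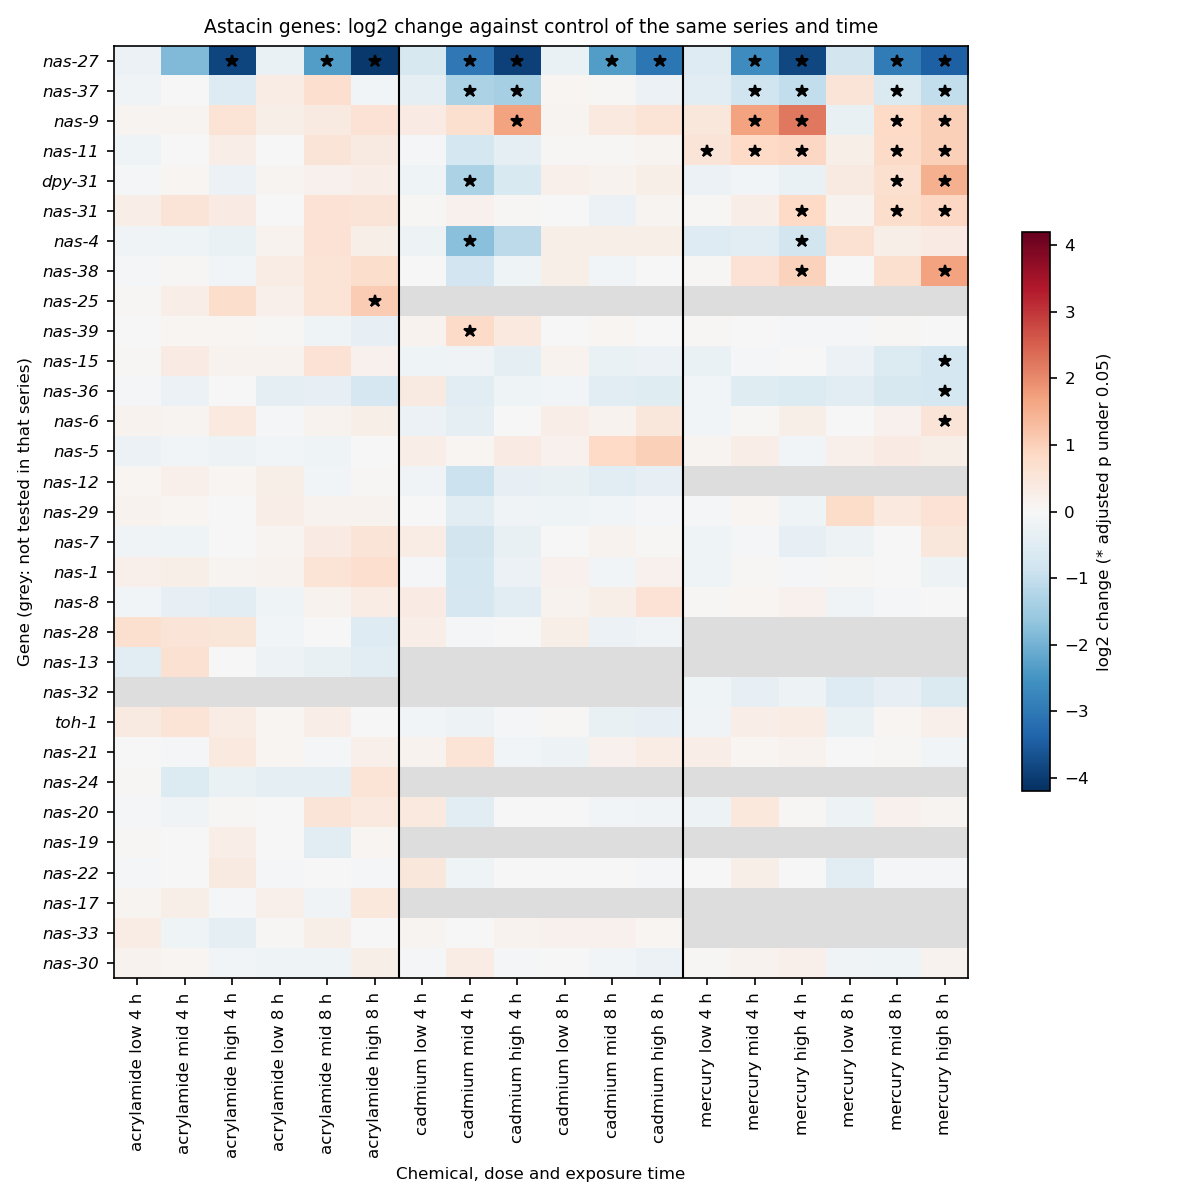
Log2 change of the 31 tested astacin genes (rows) against the matching control in the 18 dose comparisons (columns, low to high dose within each chemical and time). Red is higher and blue lower in exposed worms, stars mark calls and grey cells were not tested. Of the 42 stars, 28 lie in the mercury columns, a total for which no share over all probe sets was computed. High mercury at 8 h also called the most probe sets of any dose comparison (17.1% rose and 14% fell). The darkest row is nas-27, which reaches -4.06.

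Among the proteases of cuticle shedding, nas-37 fell with mercury at both times. At 4 h it read 1190, 1020 and 900 in controls, 973, 630 and 670 at the low dose, 680, 509 and 478 with the mid dose and 541, 452 and 432 with the high dose. The 8 h signals were 423, 496 and 484 in controls, 631, 717 and 756 at the low dose, 389, 295 and 202 with the mid dose and 268, 169 and 184 with the high dose. The 8 h low-dose arrays were thus above all controls, and the mid-dose and high-dose arrays below all of them. The high-dose changes were -1.04 at 4 h (SE 0.19, limma adjusted p = 0.00015) and -1.02 at 8 h (SE 0.19, limma adjusted p = 0.00014). The mid-dose change at 8 h, -0.61, lost its call without control replicate 2 or 3 or mid-dose replicate 2 or 3 (largest limma adjusted p = 0.2, log2 change between -0.8 and -0.41), and with only the compared groups fitted (0.074).

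The moulting protease gene nas-36 read 192, 147 and 194 at 8 h of high mercury, against 393, 338 and 258 in controls. The groups did not overlap, and the change was -0.73 (SE 0.23, limma adjusted p = 0.019). It was lost without control replicate 1 or high-dose replicate 2 (largest limma adjusted p = 0.093, log2 change between -0.87 and -0.61). In its other 17 dose comparisons nas-36 did not pass the test.

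The gene dpy-31 encodes a procollagen C-proteinase of the BMP-1 type that processes the cuticle collagen SQT-3. It rose at 8 h of the upper doses of mercury. At 8 h it read 386, 371 and 348 in controls, 464, 519 and 495 at the low dose, 479, 647 and 763 with the mid dose and 734, 1420 and 1360 with the high dose. At 4 h it read 581, 628 and 637 at the high dose, against 1050, 697 and 572 in controls, and these arrays overlapped. The high-dose change was 1.49 at 8 h (SE 0.22, limma adjusted p = 5.7e-06). The effect of high mercury on dpy-31 at 8 h exceeded that at 4 h by 1.75 (SE 0.31, limma adjusted p = 0.0091). Over the family 1 member rose more and 1 less at 8 h, where 0.423% and 0.379% of all probe sets did. For high acrylamide and cadmium no member passed this test by limma (1 and 5 at an unadjusted p under 0.05), where 0% and 0.235% of all probe sets did. The mid-dose change of 0.68 (SE 0.22, limma adjusted p = 0.031) kept its call in 1 of 6 fits with 1 array left out, that without mid-dose replicate 1, and its adjusted p was as high as 0.16 in the others. With another of its 3 probe sets the mid-dose change was 0.47 and not called (adjusted p = 0.061).

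Its substrate gene sqt-3 read 16700, 19800 and 25900 at 8 h of high mercury, against 21000, 24900 and 23300 in controls. The change of -0.17 did not pass (limma adjusted p = 0.69). The sqt-3 probe set carries a suffix marking possible cross-hybridization, so its signal may include that of other genes. The gene dpy-17, another cuticle collagen gene, read 220, 160 and 227 against 271, 220 and 132 (log2 change 0, limma adjusted p = 1). Of 11 genes of collagen maturation chosen without astacins, 3 rose and 1 fell in this comparison, near the 17.1% and 14% of all probe sets, with a median change of 0, against 0.01 over all probe sets.

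The largest rise in the family was that of nas-9 with mercury. At 4 h it read 248, 175 and 204 in controls, 382, 262 and 303 at the low dose, 685, 815 and 840 with the mid dose and 1080, 1110 and 1300 with the high dose. The 8 h signals were 532, 629 and 744 in controls, 490, 558 and 453 at the low dose, 977, 1110 and 1480 with the mid dose and 1090, 1400 and 1460 with the high dose. The mid-dose and high-dose arrays exceeded all controls at both times, while the low-dose arrays were above the controls at 4 h and overlapped them at 8 h. The high-dose change was 2.23 at 4 h (4.68-fold, SE 0.20, limma adjusted p = 2.6e-09) and 0.99 at 8 h (1.99-fold, SE 0.20, limma adjusted p = 3.2e-04). The 8 h effect was smaller by 1.23 on the log2 scale (difference -1.23, SE 0.28, limma adjusted p = 0.035), a call kept in 3 of 12 fits with 1 array left out, those without high-dose replicate 1 at 4 h, control replicate 1 at 8 h or control replicate 2 at 8 h (largest adjusted p of the others = 0.1). Its other probe set gave -0.97 (adjusted p = 0.087), and without a filter the adjusted p was 0.052.

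The gene nas-11 rose at every dose of mercury at 4 h. It read 852, 700 and 750 in controls, 1350, 1000 and 1090 at the low dose, 1440, 1390 and 1430 with the mid dose and 1220, 1440 and 1690 with the high dose. At 8 h it read 574, 549 and 590 in controls, 612, 720 and 710 at the low dose, 1010, 1010 and 1130 with the mid dose and 1030, 1260 and 1310 with the high dose. All exposed arrays were above all controls at both times. The high-dose changes were 0.87 at 4 h (SE 0.15, limma adjusted p = 5.3e-05) and 1.00 at 8 h (SE 0.15, limma adjusted p = 5.1e-06). The low-dose call at 4 h, 0.54 (SE 0.15, limma adjusted p = 0.036), was lost without low-dose replicate 1 or 3 or control replicate 2 or 3 (largest adjusted p = 0.24), and with only the compared groups fitted (0.13).

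The gene nas-38 encodes an astacin known to affect the sleep-like quiescence that accompanies each moult. It read 682, 836 and 682 in controls at 4 h, 883, 1530 and 1100 at 4 h of mid mercury and 1210, 1730 and 1550 at 4 h of high mercury. At 8 h it read 444, 394 and 376 in controls, 376, 757 and 1050 with the mid dose and 1080, 1660 and 1540 with the high dose. High-dose arrays exceeded all controls at both times, and mid-dose arrays overlapped the controls at 8 h. The high-dose changes were 0.97 at 4 h (SE 0.24, limma adjusted p = 0.0039) and 1.68 at 8 h (SE 0.24, limma adjusted p = 4.1e-06).

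The gene nas-31 read 643, 656 and 665 at 4 h of high mercury, against 360, 322 and 345 in controls. After 8 h it read 322, 312 and 346 in controls, 502, 515 and 762 with the mid dose and 536, 753 and 647 with the high dose. None of these exposed arrays overlapped the controls. The high-dose changes were 0.84 at 4 h (SE 0.17, limma adjusted p = 6.6e-04) and 0.87 at 8 h (SE 0.17, limma adjusted p = 3.2e-04).

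Of the astacins known to act in the pharynx, nas-6 and nas-7, both needed for a normal grinder, nas-6 rose once. It read 591, 597 and 505 at 8 h of high mercury, against 421, 344 and 360 in controls. The change of 0.53 (SE 0.18, limma adjusted p = 0.028) was lost without control replicate 2 or 3 or high-dose replicate 1 or 2 (largest adjusted p = 0.087, log2 change between 0.48 and 0.61). In the same comparison nas-7 read 1180, 1160 and 1270, against 900, 986 and 716 in controls. These groups did not overlap either, but the change of nas-7 did not pass, and its smallest limma adjusted p over the 18 dose comparisons was 0.12.

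The remaining members lowered by mercury were nas-4 and nas-15. At 4 h nas-4 read 588, 618 and 603 at the high dose, against 1200, 1090 and 912 in controls, a change of -0.76 (SE 0.24, limma adjusted p = 0.019). It lost its call without control replicate 1 or 2 or high-dose replicate 1 (largest adjusted p = 0.086, log2 change between -0.87 and -0.68). At 8 h nas-15 read 289, 298 and 394 at the high dose, against 768, 484 and 499 in controls, a change of -0.73 (SE 0.22, limma adjusted p = 0.012). Without control replicate 1 it was no longer called (adjusted p = 0.1). The groups did not overlap in either case.

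**Figure D3:**
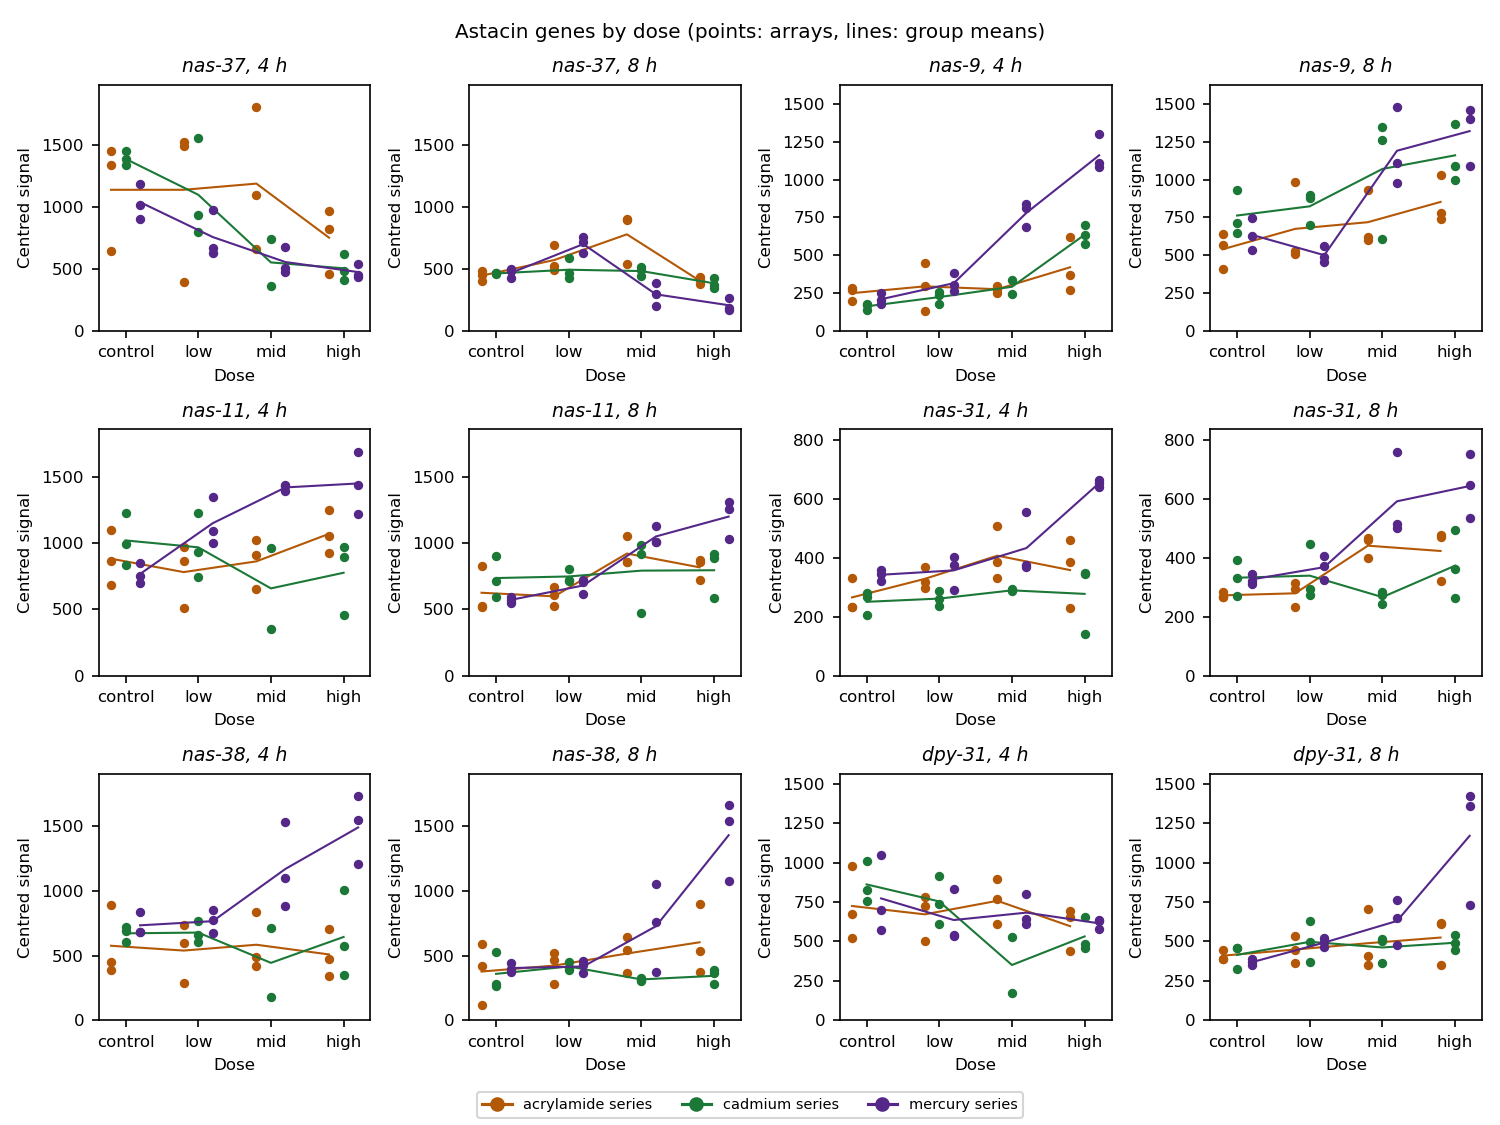
Centred signal of 6 called astacin genes by dose at 4 h and 8 h, with arrays as points and group means as lines, coloured by chemical. The mercury lines of nas-9, nas-11, nas-31 and nas-38 end above their controls at both times, the line of dpy-31 does so at 8 h with 734 to 1420 at the high dose, and nas-37 ends below its controls.

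RNA quality and tissue markers differed between exposed and control arrays in some of the comparisons. The log2 ratio of the 3' to the 5' actin probe set, which grows as RNA is degraded, was 1.31 ± 0.13 at 4 h of high mercury against 0.85 ± 0.08 in controls, and 1.53 ± 0.13 at 8 h against 1.01 ± 0.1 (SD, n = 3 each). At 8 h of high acrylamide it was 1.31 ± 0.17 against 0.97 ± 0.1, and at 4 h of high cadmium 1.07 ± 0.31 against 0.65 ± 0.18. The cadmium arrays overlapped their controls in this ratio (0.72 to 1.26 against 0.49 to 0.85). At 4 h of high acrylamide it was 0.93 ± 0.37 against 0.86 ± 0.25, and at 8 h of high cadmium 1.1 ± 0.38 against 0.88 ± 0.25. Among tissue markers at 8 h of high mercury, where 17.1% of all probe sets rose and 14% fell, 0 rose and 5 fell of 10 for epidermis, 4 rose and 0 fell of 12 for pharynx, 0 rose and 7 fell of 10 for intestine, 0 rose and 6 fell of 9 for body wall muscle, and 5 rose and 0 fell of 9 for neurons. The summed signal of the 10 epidermis markers was 16189 to 28723 at 8 h of high mercury, against 27694 to 36074 in controls, and no epidermis marker was below the filter signal. At 4 h of high mercury 0 epidermis markers rose and 6 fell (9.04% and 13.4% of all probe sets), with sums of 29832 to 41584, against 40557 to 61492 in controls. At 4 h of high cadmium 0 rose and 1 fell (2.82% and 4.27%), with sums of 15633 to 34448, against 46214 to 56685 in controls.

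High acrylamide called 0 of the 10 epidermis markers by limma at 4 h and 8 h (1 and 3 at an unadjusted p under 0.05). Their sums were 32131 to 38040 at 4 h, against 40363 to 47835 in controls, and 9465 to 23174 at 8 h, against 25034 to 27743 in controls, with no overlap at either time. Of the 10 intestine markers 0 rose and 4 fell at 4 h (3.12% and 3.08% of all probe sets), and 0 rose and 6 fell at 8 h (4.17% and 4.63%). The part of these markers and of RNA quality in the astacin results was not tested.

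Other genes of the moult were chosen as a list of 24 without astacins. At 4 h of high mercury 0 rose and 12 fell (9.04% and 13.4% of all probe sets), with a median change of -0.46 against -0.05 over all probe sets. At 8 h 5 rose and 8 fell (17.1% and 14%), with a median of -0.28 against 0.01. At the mid dose 0 rose and 8 fell at 4 h (6.94% and 9.45%), and 0 rose and 4 fell at 8 h (10.3% and 7.49%). Low mercury called none at 4 h by limma (7 of 24 at an unadjusted p under 0.05), where 1.04% of all probe sets rose and 1.65% fell. The median there was -0.23 against -0.04. At 8 h of low mercury 4 rose and 0 fell, with a median of 0.26 against 0, where 0.688% of all probe sets were called. Of the 10 epidermis markers 2 rose and 0 fell there. At the high dose of cadmium 0 rose and 5 fell of 23 tested at 4 h (2.82% and 4.27% of all probe sets). At 8 h 1 rose and 1 fell (3.64% and 2.84%), which is near the share of all probe sets. Acrylamide called none of the 24 at any dose by limma, with 0 to 3 of them at an unadjusted p under 0.05 in each of the 6 comparisons.

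The genes of the list given with values were chosen by name. At 8 h of high mercury mlt-10, a moulting gene of the epidermis, read 334, 314 and 385, against 1570, 1050 and 712 in controls (log2 change -1.49, limma adjusted p = 4.8e-06). The protease inhibitor genes bli-5 (-0.86, limma adjusted p = 0.00032) and mlt-11 (-0.85, 0.011) fell too. The gene nhr-23, which encodes a nuclear receptor that drives moulting, fell at 4 h of high mercury (-0.61, limma adjusted p = 0.013) and did not pass at 8 h (-0.22, 0.36). The 5 risers at 8 h, named after their values were seen, were lrp-1 (0.91), cpz-1 (0.77), mlt-7 (0.68), nekl-2 (0.67) and mlt-3 (0.66).

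Markers of the adult stage moved with dose as well. Of 6 tested markers, 0 rose and 6 fell at 8 h of high mercury (median -4.32), where 14% of all probe sets fell. At 8 h 0 rose and 5 fell with high acrylamide (median -2.93) and with high cadmium (median -2), where 4.63% and 2.84% of all probe sets fell. Their summed signal was 4788 to 5408 at 8 h of high mercury, against 30597 to 44359 in its controls. The 0 h controls of that series summed to 1320 to 3107. The part of developmental timing in the astacin changes was not tested.

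Unexposed worms showed how the family moves over the 8 h without a chemical. Between 4 h and 0 h, 12 of 31 tested members rose and 3 fell, where 12.3% of all probe sets rose and 22.7% fell. Between 8 h and 4 h, 4 rose and 9 fell, where 10.9% rose and 16% fell. With the authors' scaling, 15 rose and 1 fell at 4 h over 0 h, and 5 rose and 7 fell at 8 h over 4 h. The member medians were 0.30 for 4 h against 0 h and -0.13 for 8 h against 4 h, while those over all probe sets were -0.14 and -0.02. That of -0.14 was 0.07 with the authors' scaling. These comparisons use the 9 controls of the 3 series at each time.

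The largest rises from the 0 h state were those of nas-27, nas-22, nas-7 and nas-20. The gene nas-27 ran from 920 to 3110 at 4 h (median 1810), against 166 to 707 at 0 h (median 282), a change of 2.16 (SE 0.28, limma adjusted p = 7.1e-09). The gene nas-22 ran from 192 to 561 at 4 h (median 344), against 27.2 to 103 at 0 h (median 74.9), a change of 1.70 (SE 0.19). The gene nas-7 ran from 873 to 1850 at 4 h (median 1310), against 178 to 602 at 0 h (median 444), a change of 1.63 (SE 0.20). For these genes the 2 times did not overlap. The other genes that rose were nas-1, nas-5, nas-8, nas-12, nas-13, nas-36, nas-38 and toh-1. The call of toh-1, a tolloid homolog, held for 1 of its 3 probe sets and was lost without replicate 1 of the acrylamide series (log2 change 0.48).

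Lower at 4 h than at 0 h were nas-9, nas-11 and nas-31. The gene nas-9 ran from 136 to 283 at 4 h (median 198), against 156 to 1350 at 0 h (median 505), a change of -1.05 (SE 0.21, limma adjusted p = 6e-05), and the arrays overlapped. The call of nas-31 (-0.34) was lost in 7 of 18 fits with 1 array left out (largest adjusted p = 0.075). These were without acrylamide 4 h replicate 2 or 3, acrylamide 0 h replicate 3, cadmium 4 h replicate 3, cadmium 0 h replicate 1, or mercury 0 h replicate 1 or 3. With the authors' scaling nas-31 changed by -0.12 and nas-11 by -0.29, in place of -0.54, and neither was called.

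At 8 h the ecdysis protease gene nas-37 and the procollagen protease gene dpy-31 were both lower than at 4 h. The gene nas-37 ran from 401 to 496 at 8 h (median 467), against 644 to 1450 at 4 h (median 1340), a change of -1.24 (SE 0.17, limma adjusted p = 7.8e-08). The gene dpy-31 ran from 323 to 461 at 8 h (median 390), against 520 to 1050 at 4 h (median 755), a change of -0.87 (SE 0.15, limma adjusted p = 6e-06). The largest fall was that of nas-4, which ran from 226 to 698 at 8 h (median 362), against 520 to 1440 at 4 h (median 1290), a change of -1.42 (SE 0.24). The times did not overlap for nas-37, dpy-31 and nas-15 (-1.26, SE 0.22) and overlapped for nas-4. Of the 24 other moulting genes, 0 rose and 21 fell over the same interval, where 10.9% of all probe sets rose and 16% fell. Their median was -1.07, against -0.02 over all probe sets.

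The genes nas-20 and nas-9 rose most between 4 h and 8 h. The gene nas-20 ran from 657 to 1210 at 8 h (median 924), against 107 to 336 at 4 h (median 228), a change of 1.85 (SE 0.21, limma adjusted p = 4.1e-10). The gene nas-9 ran from 408 to 928 at 8 h (median 642), against 136 to 283 at 4 h (median 198), a change of 1.43 (SE 0.21, limma adjusted p = 1.8e-07). Arrays of the 2 times did not overlap for either gene. The rises of nas-21 (0.60) and nas-39 (0.28) were smaller. That of nas-39 was lost without replicate 1 of the acrylamide series (0.25, adjusted p = 0.11), with quantile normalization (adjusted p = 0.099), without a filter (0.051), with only the compared groups fitted (0.077), and in 9 of 18 fits with 1 array left out (largest adjusted p = 0.11). These were without any 8 h array of the mercury series, acrylamide 8 h replicate 1 or 3, cadmium 8 h replicate 2, or replicate 3 of acrylamide, 2 of cadmium or 2 of mercury at 4 h.

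**Figure D4:**
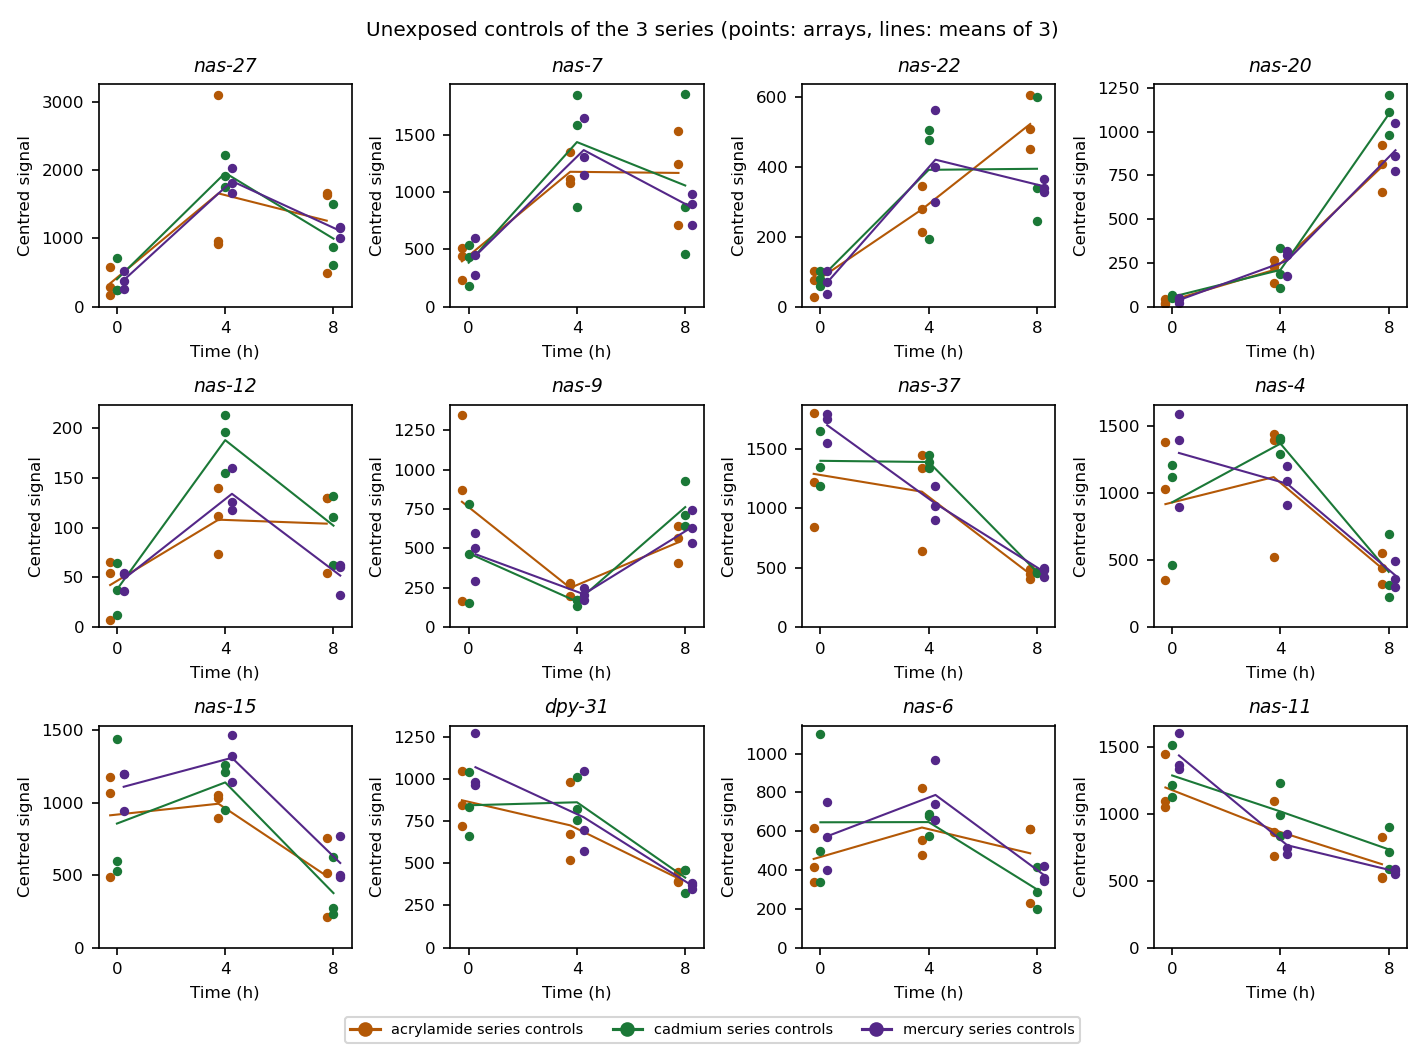
Centred signal of 12 astacin genes in the unexposed controls at 0 h, 4 h and 8 h, with arrays as points and means of 3 as lines, coloured by series. The lines of nas-20 climb to 657 to 1210 at 8 h, the lines of nas-27 are highest at 4 h, nas-9 is lowest at 4 h, and nas-37 and dpy-31 end at their lowest values. In the acrylamide series replicates 2 and 3 of nas-27 are higher at 8 h than at 4 h. The change of nas-27 between these times was not called.

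Directions of change with exposure and with time in controls are set side by side here for some called genes. The gene nas-37 was lower at 8 h than at 4 h in controls and lower at the mid and high doses of mercury than in controls. The gene nas-27 was higher at 4 h than at 0 h in controls and lower in worms exposed to the mid and high doses. The gene nas-9 was higher at 8 h than at 4 h in controls and higher with mid and high mercury. The gene nas-38 was lower at 8 h than at 4 h in controls (-0.77, SE 0.21) and higher with high mercury. The control change of nas-38 was no longer called without replicate 1 of the acrylamide series (-0.47, limma adjusted p = 0.06). Also lower at 8 h than at 4 h in controls were nas-11 (-0.44, not called with the authors' scaling), dpy-31 (-0.87) and nas-6 (-0.79). All of these were higher at 8 h of high mercury. Both nas-4 (-1.42) and nas-15 (-1.26) were lower at 8 h than at 4 h in controls and lower with high mercury. These statements set side by side comparisons that share control arrays.

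Differences between chemicals in their high-dose effect were tested over all 80 arrays, each against its own controls. Of 31 tested members, none differed by limma between cadmium and acrylamide at 4 h or 8 h (4 and 2 at an unadjusted p under 0.05), where 2.04% and 2.43% of all probe sets did. None differed between mercury and acrylamide at 4 h or 8 h (3 and 5 at an unadjusted p under 0.05), where 2.67% and 3.34% did. Cadmium and mercury differed in 1 member at 4 h and 1 at 8 h, both lower with cadmium. There 0.848% of all probe sets were higher and 0.786% lower at 4 h, and 2.11% higher and 1.26% lower at 8 h.

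The member at 4 h was nas-11. It read 898, 973 and 455 at high cadmium, against 1230, 834 and 993 in cadmium controls, and 1220, 1440 and 1690 at high mercury, against 852, 700 and 750 in mercury controls. The cadmium arrays overlapped their controls and the mercury arrays did not. The cadmium effect less the mercury effect was -1.29 (SE 0.35, limma adjusted p = 0.032). It was lost with the authors' scaling (-1.13, adjusted p = 0.17) and with only the compared groups fitted (adjusted p = 0.1). With 1 array left out it lay between -1.48 and -0.97 and was lost in 7 of 12 fits (largest adjusted p = 0.26). These were without cadmium control replicate 1 or 3, high cadmium replicate 3, or replicate 2 or 3 of either mercury group.

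The member at 8 h was dpy-31, which read 543, 490 and 444 at high cadmium, against 461, 323 and 459 in cadmium controls, beside the rise with mercury given above. The cadmium effect less the mercury effect was -1.25 (SE 0.37, limma adjusted p = 0.038). It kept its call in 3 of 12 fits with 1 array left out, those without high cadmium replicate 1, cadmium control replicate 2 or high mercury replicate 1 (largest adjusted p of the others = 0.16). It was lost with the authors' scaling (-1.08, adjusted p = 0.17) and with another probe set of dpy-31 (-0.94, adjusted p = 0.075).

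The 18 members that were tested and never called in a dose comparison had log2 changes between -0.91 and 0.99 over 246 values, with a smallest limma adjusted p of 0.054. That value belongs to nas-5, named here after its values were seen, which read 527, 516 and 430 at 8 h of high cadmium, against 203, 160 and 324 in controls. Its groups did not overlap (log2 change 0.99). The tolloid homolog toh-1 had a smallest limma adjusted p of 0.39 over its 18 dose comparisons.

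Neighbouring members did not share 1 pattern. The genes nas-20, nas-21 and nas-22 lie next to each other on a chromosome of WBcel235 with no gene between them. In controls nas-20 and nas-22 rose at 4 h over 0 h, and nas-20 and nas-21 rose at 8 h over 4 h, while none of them was called in a dose comparison. The genes nas-18, nas-17 and nas-19 also lie side by side, with nas-16 separated from nas-18 by 1 gene. Of these 4, nas-16 and nas-18 were never tested and nas-17 and nas-19 were tested in the acrylamide series without a call.

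The 5 members that were never tested were hch-1, which encodes the hatching enzyme of the embryo, and nas-10, nas-14, nas-16 and nas-18. Their mean signals over the 80 arrays were 23.2 to 67.8, and at most 2 arrays of any one of them exceeded 132. In the controls hch-1 ran from 5.13 to 117. A level this low on these arrays does not show that a gene was silent.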

How the data were processed

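Labelled cRNA from whole worms was read on 80 arrays in 27 groups, set by chemical, dose and time in the sample titles. The deposited intensity values are MAS5 signals per probe set on a linear scale, per the submitters' processing notes. MAS5 version, scaling target and detection calls are not given in the sources used here, and array background limits the precision of dim genes. The arrays hold 22625 probe sets, and the 77 that serve as array controls were dropped. Signals were centred to an array median of 202.9, 52 (the 20th percentile) was added, and log2 taken. Probe sets above 132 (the 40th percentile) on at least 3 arrays were tested: 16488, 16183 and 15838 in the acrylamide, cadmium and mercury series and 17808 over all arrays. limma 3.58.1 in R 4.3.3 fitted 1 mean per group with a mean-variance trend, by series for doses and over all arrays for controls and chemicals. P-values were adjusted by Benjamini-Hochberg.

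Members and gene lists were chosen with earlier results of these data known. Named in full were nas-27, nas-37 and the 6 further members with most calls. Other called members, members of known role and 7 genes of the lists were named with values. Probe sets of 7 members, nas-9, nas-15, nas-36, nas-37, dpy-31, hch-1 and toh-1, carry a suffix marking possible cross-hybridization. So do those of sqt-3, nhr-23 and mlt-11 among the named genes of the lists. Same-numbered arrays of a series correlated on average between 0.132 and 0.185 in their deviations, with minima from -0.34 to -0.217. Arrays of different numbers averaged between -0.091 and -0.066. The labels do not say what a number marks, and the main fits did not use the numbers. Alternatives were the authors' scaling, quantile normalization, a pseudocount of 16, no filter, a replicate block, no trend, fits of only the compared groups, other probe sets, and leaving out arrays.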

Additional observations from a re-analysis of the deposited data

Results flagged for a closer look

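Differences of effect were called for 3 genes. With mercury, dpy-31 changed more at 8 h than at 4 h of the high dose, by 1.75 on the log2 scale (SE 0.31, limma adjusted p = 0.0091), and nas-9 changed less, by -1.23 (SE 0.28, limma adjusted p = 0.035). The cadmium effect less the mercury effect was -1.29 for nas-11 at 4 h (SE 0.35, limma adjusted p = 0.032). For dpy-31 at 8 h it was -1.25 (SE 0.37, limma adjusted p = 0.038). The dpy-31 difference over time kept its call in all 12 fits with 1 array left out. The calls were lost in 9 of 12 such fits for nas-9, 7 of 12 for nas-11 and 9 of 12 for dpy-31 between chemicals. Both differences between chemicals were also lost with the authors' scaling. With dpy-31, the difference over time rests on 1.49 at 8 h, against -0.27 at 4 h. The actin 3' to 5' log2 ratio was 1.53 at 8 h and 1.31 at 4 h of high mercury, and its part in these differences was not tested.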

How the results depend on the processing

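Over the 74 changes of single astacin genes that were recomputed, 74 kept direction and call with a pseudocount of 16, with a replicate block and without the trend, 73 with quantile normalization, 72 without a filter, 67 with the authors' scaling and 66 with only the compared groups fitted. With 1 array left out, 752 of 831 did and 79 kept direction without the call. With another probe set of the gene, 15 of 23 did, 7 lost the call and 1 reversed: toh-1 in controls at 4 h against 0 h was -0.05 (limma adjusted p = 0.87), against 0.90.

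Counts of called members moved as follows, and the cause was not tested. With the authors' scaling mid acrylamide at 4 h called 1, and cadmium less mercury called 0 at 4 h and 0 at 8 h. Quantile normalization called 2 for high cadmium at 8 h and 2 for cadmium less mercury at 8 h. Without a filter the mercury effect at 8 h less that at 4 h called 1. With the replicate block high cadmium at 8 h called 2, mercury less acrylamide at 8 h called 1 and cadmium less mercury at 8 h called 2. The block changed no call of the 74. In the acrylamide, cadmium and mercury series, 65 of 108, 57 of 100 and 80 of 108 same-number pairs had correlations above 0.1. Arrays of the same number thus shared some deviation, which the main fits did not model. Fits of only the compared groups, which have fewer arrays, called 1 for mid cadmium at 4 h, 2 for high cadmium at 8 h, 0 for low mercury at 4 h, 1 for low mercury at 8 h, 1 for mercury less acrylamide at 4 h, and 0 and 2 for cadmium less mercury at 4 h and 8 h. Mid mercury at 8 h, with 6 in the report, called 8 with the authors' scaling or quantile normalization, 9 with the replicate block and 5 with only the compared groups, and that last fit called 3 for the mercury effect at 8 h less that at 4 h. Leaving out replicate 1 of the acrylamide series, chosen after seeing the data, gave 1 call for mid acrylamide at 4 h and 3 at 8 h.

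With 1 array left out, the count of called members ranged from 0 to 1 for mid acrylamide at 8 h, 1 to 2 for high acrylamide at 8 h, 1 to 13 for mid cadmium at 4 h, 1 to 2 for high cadmium at 8 h, 0 to 1 for low mercury at 4 h and at 8 h, 4 to 8 for mid mercury at 8 h and 1 to 2 for the mercury effect at 8 h less that at 4 h. It ranged from 0 to 1 for mercury less acrylamide at 4 h and at 8 h, 0 to 1 for cadmium less mercury at 4 h and 0 to 2 at 8 h. Groups of 3 arrays and signals near the array background limit what could be called for dim members.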
